A study of Mus musculus with 6 samples.

Results

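Lysosomes digest glycosaminoglycans, glycoproteins and lipids with acid hydrolases, and autophagy delivers parts of the cell to them. In cartilage, chondrocytes take up matrix fragments rich in chondroitin, keratan and dermatan sulfate, and lysosomal glycosidases and sulfatases remove the sugars and sulfates of these chains step by step. The transcription factors TFEB, TFE3 and MITF are known to bind a shared promoter element of lysosomal and autophagy genes, and the autophagosome membrane grows as LC3 and GABARAP proteins are coupled to lipid. The genes described here were chosen by function, as listed glycosidases, lipid hydrolases, sulfatases, membrane proteins, TFEB-family factors and core autophagy genes. They number 40 of the 28812 genes in the table, and all 40 were found by symbol and passed the filter on low counts.

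Poly(A) RNA of wild-type mouse chondrocytes was sequenced in paired-end libraries. In 3 libraries the cells had been given mitochondria along with interleukin-1 beta (IL-1β), and in 3 they had been given vehicle along with IL-1β. That cytokine drives inflammation and matrix loss in joints and serves in culture as a stand-in for osteoarthritis (OA), the disease state of all 6 libraries. Judging by the title of the series, the mitochondria came from osteocytes, the cells embedded in bone. No library without IL-1β was analysed here. The labels give no age or sex and do not state whether replicates differ in animal or culture, so p-values measure only the spread between these libraries, which may be technical.

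Totals were 63547854 to 66293786 deposited counts in mitochondria libraries and 64646124 to 65131847 in vehicle libraries. The libraries spread within groups as well as between them: along the leading principal component of log2 CPM (counts scaled to library size, with TMM factors, the trimmed mean of M-values) mitochondria replicate 1 lay at -81.44 and the other mitochondria libraries at -27.36 and -34.7, with vehicle replicate 1 at 30.39 and the other vehicle libraries at 56.75 and 56.36. Mitochondria replicate 1 was the highest of its group in 26 of the 40 genes described here and the lowest in 10, together 90% of them, against 80.2% of all genes tested. All 12 chondrocyte markers listed were detected. The cartilage collagen Col2a1 was the highest of them, at 96 FPKM with mitochondria and 112 with vehicle. FPKM is a fragment count the authors scaled by transcript length and depth. Others were low: Acan was at 2.59 FPKM with mitochondria and 1.87 with vehicle, Matn3 at 0.163 and 0.337, and Snorc at 0.155 and 0.386. Macrophages are rich in lysosomes. The 13 macrophage markers summed to 40.6 to 50.0 FPKM with mitochondria and 44.3 to 53.6 with vehicle. Most of this was Lyz2, at 20.2 FPKM with mitochondria and 28.2 with vehicle, and Cd14, at 16.7 and 13. Their estimates had opposite signs, log2 -0.41 and 0.43 (adjusted p = 0.14 and 0.056, edgeR). Other macrophage markers were far lower, such as Adgre1 at 1.1 and 0.593 and Ptprc at 0.0179 and 0.0635. None of the 13 passed in edgeR in either direction (3 had an unadjusted p under 0.05, and DESeq2 called 1 higher and 1 lower). No member of the list was at 0 in all libraries. Of the chondrocyte markers 2 were higher, Sox9 and Acan, and 2 lower, Hapln1 and Col11a1, in edgeR. Over all genes tested 6.36% were higher and 8.46% lower, the shares against which these marker counts are to be read. Summed levels of the chondrocyte markers were 182 to 212 FPKM with mitochondria and 219 to 260 with vehicle. Of 7 fibroblast markers 3 were lower with mitochondria, Thy1, Pdgfra and Cd55, against 8.46% of all genes, and 0 were higher. That list summed to more than the chondrocyte list, 975 to 1140 FPKM with mitochondria and 1100 to 1270 with vehicle. Most of it was Col1a1, at 736 FPKM with mitochondria and 791 with vehicle. Of 4 osteoclast markers tested Ctsk was lower, and Acp5, at 1.36 FPKM with mitochondria and 0.763 with vehicle, did not pass. Of 5 osteocyte markers found, 2 were tested and 0 passed in edgeR (1 had an unadjusted p under 0.05, and DESeq2 called 1 higher); the list summed to 120 to 131 FPKM with mitochondria and 78.6 to 119 with vehicle, most of it Pdpn (log2 0.52, adjusted p = 0.064, edgeR), with Dmp1 and Sost at 0 in the 3 mitochondria libraries and in all but 1 vehicle library each. The part of these cell types in the results below was not tested. In RNA from whole cultures, fewer cells of a type and less RNA per cell cannot be told apart.

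Most of the 40 genes stayed within a narrow range. With mitochondria 2 of them rose, the beta-galactosidase gene Glb1 and the phosphoinositide-binding autophagy gene Wipi2, and 2 fell, the acid ceramidase gene Asah1 and the iduronate sulfatase gene Ids, while 36 did not pass (edgeR quasi-likelihood test, two-sided, Benjamini-Hochberg adjusted p under 0.05 over 17290 genes). Over all genes tested 6.36% were higher and 8.46% lower, so 2 and 2 of 40 is no more than the share called among all genes. The 3 mitochondria values lay above all 3 vehicle values in 15 of the 40 genes and below them in 7, against 19.8% and 20.9% of all genes tested. The median log2 fold change of the 40 was 0.08, and 24 estimates were above 0; over all genes tested the median was 0.00. The median size of the change, regardless of sign, was 0.18 log2 units in the 40 and 0.31 over all genes. In 39 of the 40 genes the 95% interval of the fold change lay inside a 2-fold change either way. Of the 17290 genes tested this held for 10030. In 25 of the 40 (62.5%) the interval lay within 0.5 log2 units of 0, against 26.3% of all genes. All genes tested include genes near the filter on low counts, and their estimates run from -9.36 to 8.07. Whether the 40 changed less than genes of like counts was not tested.

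**Figure D1:**
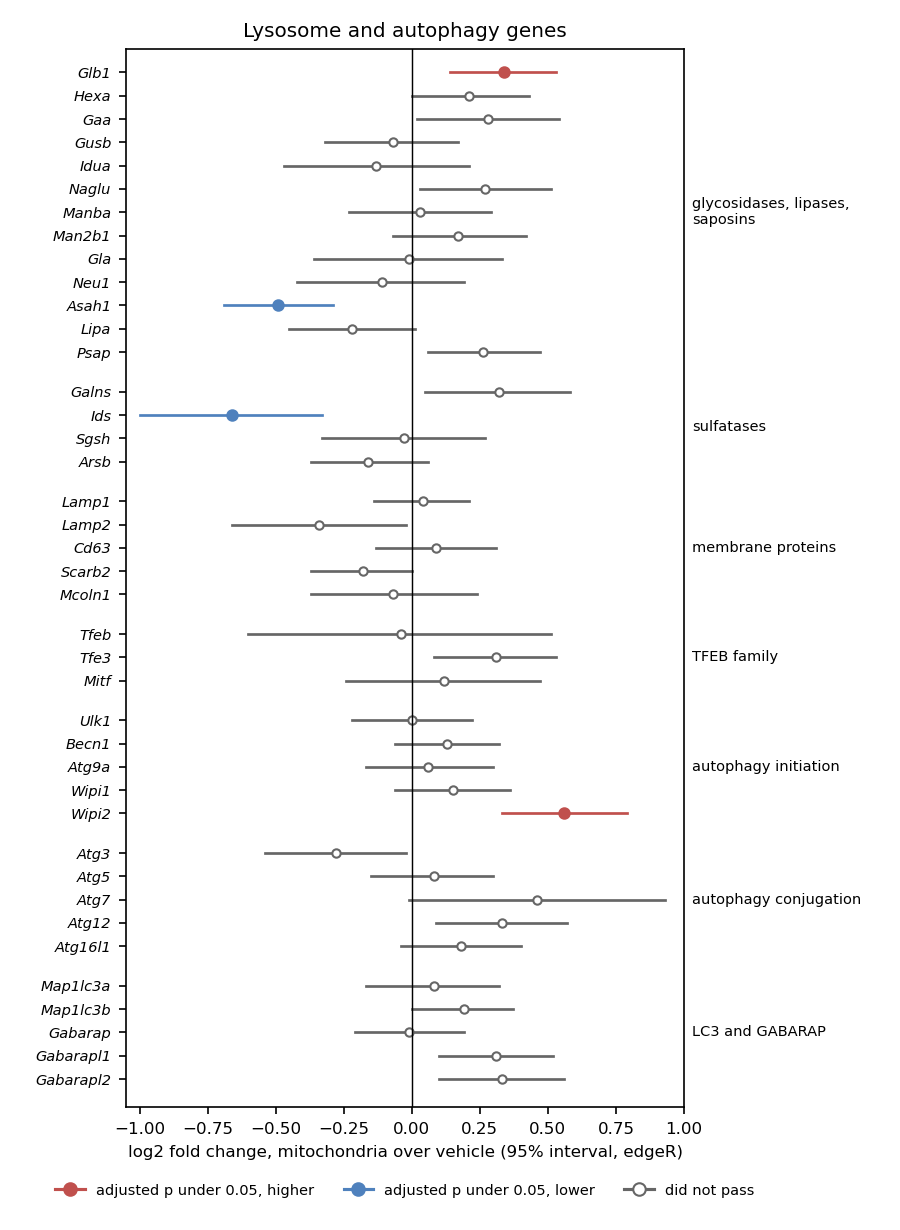
Log2 fold change of each of the 40 genes, mitochondria over vehicle, with its 95% interval from edgeR, by role; filled points passed the adjusted threshold. Wipi2 and Glb1 lie to the right of 0, Asah1 and Ids to the left, and the other 36 points are open.

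The number of calls depended on which libraries entered, among the 40 and among all genes. Without vehicle replicate 2, and likewise without vehicle replicate 3, 0 of the 40 rose and 0 fell in edgeR, with adjusted p of 0.064 to 0.16 for the 4 genes. Of all genes 0.727% were higher and 1.77% lower in the fit without vehicle replicate 2, and 0.736% and 1.73% in the fit without vehicle replicate 3. Without mitochondria replicate 3, 1 rose and 1 fell, against 2.21% and 4.07% of all genes, and without mitochondria replicate 2, 1 rose and 2 fell, against 4.87% and 8.5%. Without mitochondria replicate 1, 3 rose and 2 fell, against 6.02% and 9.39%. Without vehicle replicate 1, 2 rose and 2 fell, against 5.4% and 6.38%, with Atg12 called in place of Glb1. The fold changes of the 4 genes kept their sign over the 6 fits. They ran from 0.31 to 0.37 for Glb1, 0.46 to 0.61 for Wipi2, -0.54 to -0.45 for Asah1 and, the widest range, -0.78 to -0.52 for Ids. With upper-quartile scaling in place of TMM 5 rose and 2 fell, against 8.42% and 7.81% of all genes, and DESeq2 called 6 higher and 2 lower, against 10.6% and 13.6%. An unadjusted p under 0.05 was found in 15 of the 40 (37.5%) and in 31.5% of all genes tested, the share against which such counts in the groups below are to be read.

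Levels per length covered a wide span. Psap, the precursor of the saposins that present lipids to hydrolases, was the highest at 378 ± 30.2 FPKM with mitochondria and 330 ± 19.0 with vehicle (SD, n = 3 each). Lamp1, the main glycoprotein of the lysosomal membrane, followed at 279 ± 14.5 FPKM with mitochondria and 285 ± 7.81 with vehicle. The tetraspanin gene Cd63 was at 177 ± 20.6 FPKM with mitochondria and 174 ± 4.58 with vehicle, and Gabarap, an LC3-like membrane tag, at 153 ± 11.2 with mitochondria and 161 ± 8.43 with vehicle. At the other end, the transcription factor Tfeb was at 0.626 ± 0.175 FPKM with mitochondria and 0.678 ± 0.0319 with vehicle, and Mitf at 1.98 ± 0.292 with mitochondria and 1.91 ± 0.189 with vehicle. The table also lists Cd63-ps, a processed copy of Cd63, at 46.2 FPKM over all libraries against 176 for Cd63. How reads were divided between the copies is not given in the sources used here, so the level of Cd63 is uncertain. Of the 40 genes, 9 overlap another gene of the table above 0.1 FPKM, and whether counting used the strand is not given in the sources used here. The overlapping gene reached at least 10% of the member's level in 3 pairs: Dgkq at 1.76 FPKM beside Idua at 3.0, the pseudogene Oaz2-ps at 2.81 beside Manba at 2.89, and Zcchc14 at 4.91 beside Map1lc3b at 30.

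**Figure D2:**
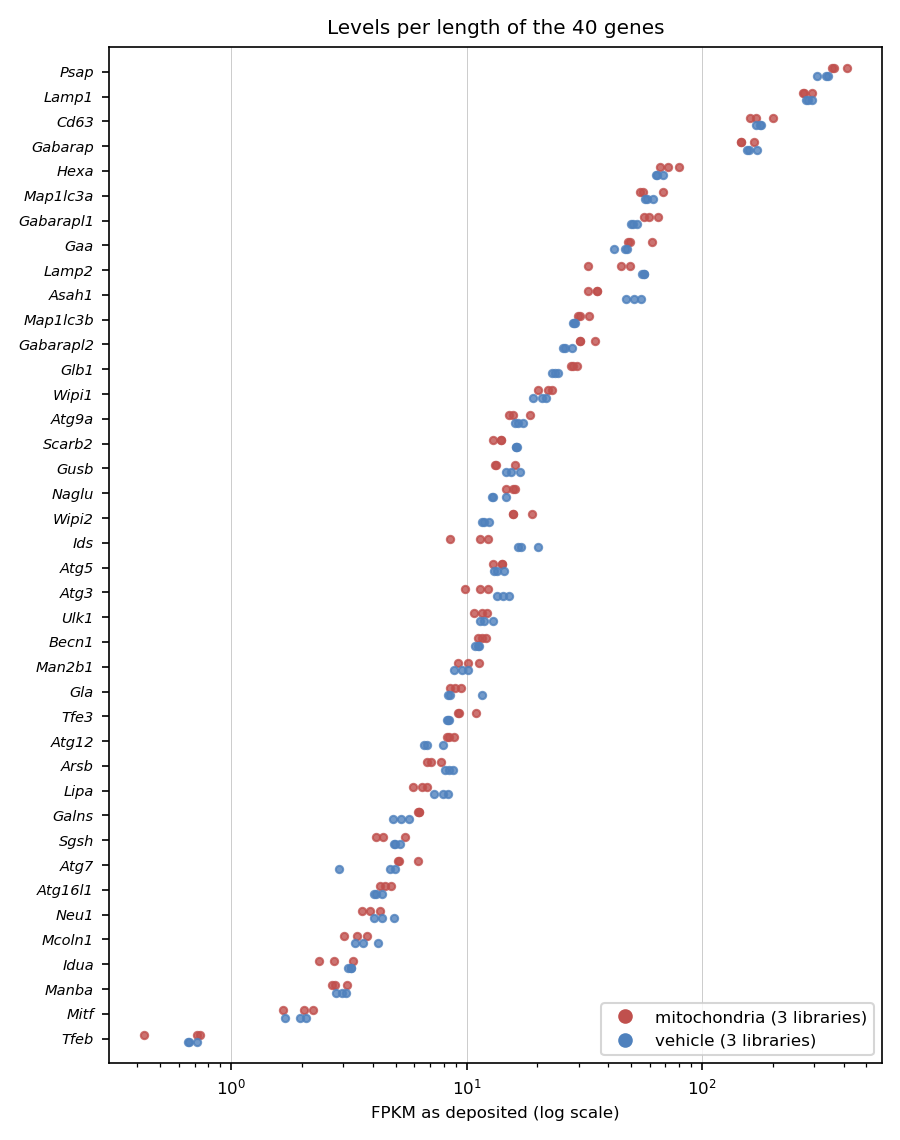
FPKM of the 40 genes in each library on a log scale, mitochondria libraries in red above vehicle libraries in blue, ordered by the mean over all 6. Psap, Lamp1, Cd63 and Gabarap stand at the top and Tfeb at the bottom, and for most genes the red and blue points lie close together.

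Among the 13 glycosidases, lipid hydrolases and saposins, 1 rose and 1 fell, with a median log2 fold change of 0.03. Glb1 (ENSMUSG00000045594; chromosome 9, 114401076 to 114474898), which removes galactose from gangliosides and keratan sulfate, stood at 99.9, 96.7 and 94.1 CPM with mitochondria, against 80.1, 73.4 and 76.5 CPM with vehicle. All mitochondria libraries were above all vehicle libraries, and the log2 fold change was 0.34 ± 0.09 (SE; adjusted p = 0.033, edgeR). Tmppe, which lies within Glb1 on the same strand, was at 2.34 FPKM and changed by -0.11 (adjusted p = 0.71, edgeR). Without vehicle replicate 1 the adjusted p of Glb1 was 0.053, without mitochondria replicate 2 it was 0.065, and without mitochondria replicate 3 it was 0.088.

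Asah1 (ENSMUSG00000031591; chromosome 8, 41340197 to 41374773), which splits ceramide into sphingosine and a fatty acid, stood at 126, 138 and 136 CPM with mitochondria, against 177, 198 and 187 CPM with vehicle. The groups did not overlap, and the log2 fold change was -0.49 ± 0.09 (SE; adjusted p = 0.011, edgeR). With offsets for transcript GC content the change was -0.16 (adjusted p = 0.28, edgeR), and the transcripts of Asah1 have 43.8% GC, near the low end of the 40. Psap stood at 1280, 1110 and 1110 CPM with mitochondria, against 1030, 901 and 993 CPM with vehicle. These values did not overlap either, but the change of 0.26 ± 0.09 did not pass (adjusted p = 0.084, edgeR).

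The other hydrolase estimates ran from -0.22 to 0.28 and did not pass. Gaa, which degrades glycogen, was at 287 ± 39.5 CPM with mitochondria and 236 ± 17.3 with vehicle (SD, n = 3 each; log2 0.28, adjusted p = 0.13, edgeR). Naglu, an exoglucosaminidase of heparan sulfate, had an estimate of 0.27, Hexa, the alpha chain of hexosaminidase, of 0.21 and the alpha-mannosidase gene Man2b1 of 0.17. Those of the beta-mannosidase gene Manba (0.03), the alpha-galactosidase gene Gla (-0.01), the beta-glucuronidase gene Gusb (-0.07), the sialidase gene Neu1 (-0.11), the iduronidase gene Idua (-0.13) and the acid lipase gene Lipa (-0.22) had 95% intervals that included 0. The intervals of Hexa and Man2b1 included 0 as well, which makes 8 of the 13 genes of this group.

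Of the 4 sulfatases, 1 fell and 0 rose, with 2 at an unadjusted p under 0.05 and the same counts by DESeq2. Ids (ENSMUSG00000035847; chromosome X, 70343069 to 70365084), which takes sulfate from iduronate in dermatan and heparan sulfate, stood at 49.0, 71.5 and 65.1 CPM with mitochondria, against 91.5, 92.8 and 110 CPM with vehicle. Mitochondria replicate 1 was the lowest, and every mitochondria library was below every vehicle library. The log2 fold change of -0.66 ± 0.15 (SE; adjusted p = 0.022, edgeR) was the largest of the 40 in size, and it was -0.40 with GC offsets (adjusted p = 0.016, edgeR) and -0.52 without mitochondria replicate 1 (adjusted p = 0.012). Without mitochondria replicate 3 the call was lost (adjusted p = 0.061). Galns, a sulfatase of keratan and chondroitin sulfate, was at 18.7 ± 0.0788 CPM with mitochondria and 15 ± 1.24 with vehicle (SD, n = 3 each), an estimate of 0.32 that did not pass (adjusted p = 0.11, edgeR). The estimates of Arsb, which acts on dermatan and chondroitin sulfate, and of the heparan sulfatase gene Sgsh were -0.16 and -0.03.

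None of the 5 membrane protein genes passed in edgeR or in DESeq2, and Lamp2 alone had an unadjusted p under 0.05. Lamp1 stood at 891, 813 and 815 CPM with mitochondria, against 855, 803 and 797 CPM with vehicle. These ranges overlapped, and the 95% interval of its log2 fold change, -0.14 to 0.21, covers only small changes either way. Cd63 stood at 830, 667 and 702 CPM with mitochondria, against 706, 697 and 667 CPM with vehicle, and the overlap here was wide (log2 0.09, 95% interval -0.13 to 0.31). Lamp2, which also serves in chaperone-mediated autophagy, stood at 353, 535 and 485 CPM with mitochondria, against 590, 568 and 582 CPM with vehicle. Mitochondria replicate 1 was far below the other libraries of its group. The log2 fold change was -0.34 ± 0.14 (adjusted p = 0.13, edgeR), and -0.18 without that library (adjusted p = 0.10). With GC offsets the estimate had the opposite sign, 0.16 (adjusted p = 0.11, edgeR), and Lamp2 has the lowest GC content of the 40, at 41.6%. Scarb2, the receptor that carries glucocerebrosidase to lysosomes, had an estimate of -0.18, and the calcium channel gene Mcoln1 one of -0.07.

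**Figure D3:**
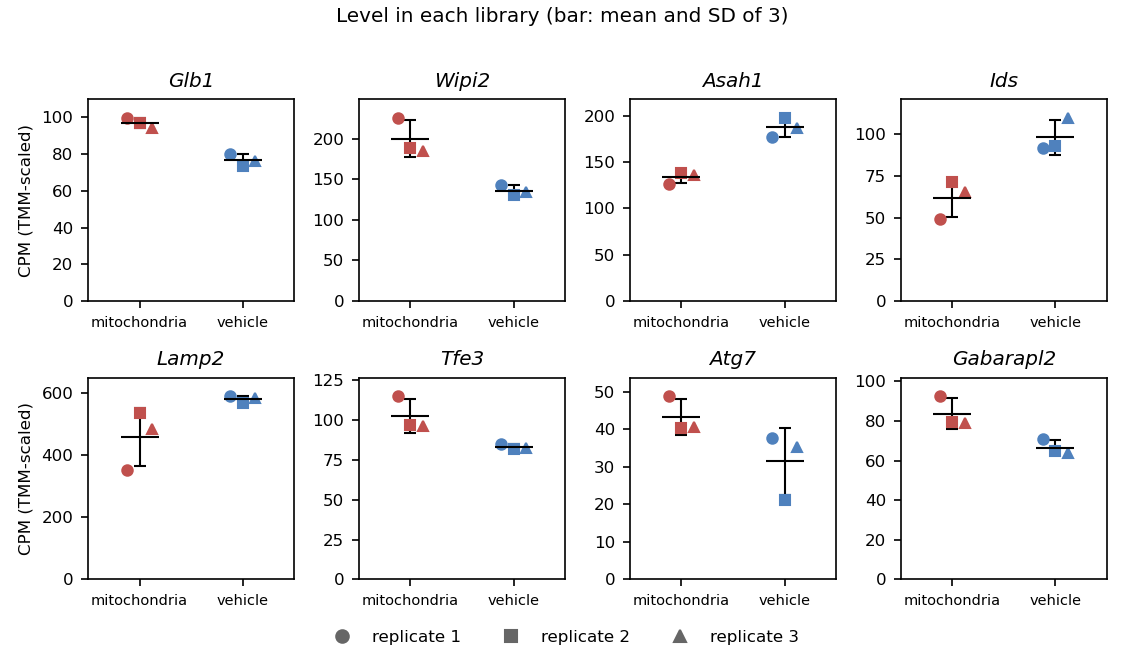
CPM in each library for the 4 genes that passed and for the Lamp2, Tfe3, Atg7 and Gabarapl2 genes, mitochondria left of vehicle, with the mean and SD of 3 and a marker shape for each replicate number. In Glb1, Wipi2, Tfe3, Atg7 and Gabarapl2 the mitochondria points are all above the vehicle points, in Asah1, Ids and Lamp2 they are all below, and Lamp2 replicate 1 lies apart at 353 CPM.

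The transcription factors of the TFEB family did not pass. Tfe3 was the most abundant of them and stood at 115, 96.8 and 96.1 CPM with mitochondria, against 84.8, 81.6 and 82.6 CPM with vehicle. Its groups did not overlap, and the log2 fold change was 0.31 ± 0.10 (SE; adjusted p = 0.072, edgeR); DESeq2 called it (adjusted p = 0.036), and with GC offsets the estimate was 0.15 (adjusted p = 0.15, edgeR). Tfeb stood at 4.75, 2.76 and 4.59 CPM with mitochondria, against 4.42, 4.04 and 4.01 CPM with vehicle, and replicate 2 set the low end. Its 95% interval was wide, -0.60 to 0.51. Mitf stood at 11.6, 14.4 and 15.5 CPM with mitochondria, against 14, 11.3 and 13.0 CPM with vehicle, with full overlap (log2 0.12, 95% interval -0.24 to 0.47). These are transcript levels; TFEB and TFE3 are known to be controlled largely by phosphorylation and movement into the nucleus, which RNA does not measure.

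Promoters of the 40 genes were searched for the letters CACGTG, the core of the element that TFEB-family factors bind, in RefSeq windows of GRCm38.p6 that run from 250 bases before to 50 after each start. Windows were found for 34 of the 40 genes. The core was present in 10 of the 34 (29.4%), against 8.09% of 27025 genes. The longer TCACGTG, on either strand, was present in 9 (26.5%, against 4.29%), and TCACGTGA in 3 (8.82%, against 1.12%); each longer match contains the core. The 10 genes were Atg3, Atg5, Atg7, Gaa, Gla, Glb1, Lamp1, Mcoln1, Naglu and Sgsh. Their median log2 fold change was 0.06, and that of the 24 genes without the core 0.04. A match describes the letters only and shows no binding. The windows below, with the core in capitals, are those of Glb1, which rose (the windows of Wipi2 and Ids hold no core, and Asah1 has no window in the table); of Lamp1, which holds 4 cores between 67 and 4 bases before its start; and of Mcoln1, Atg3 and Gla, which hold the longest match, each printed 5′ to 3′ on the strand of its gene. They lie at chr9:114401018-114401047 (plus strand), chr8:13159094-13159157 (plus), chr8:3500462-3500491 (plus), chr16:45158746-45158775 (plus) and chrX:134601182-134601211 (minus), where Gla has a further match outside the window shown.
Glb1: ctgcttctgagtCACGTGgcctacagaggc
Lamp1: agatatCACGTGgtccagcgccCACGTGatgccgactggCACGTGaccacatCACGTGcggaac
Mcoln1: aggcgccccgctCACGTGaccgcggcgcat
Atg3: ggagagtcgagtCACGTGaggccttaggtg
Gla: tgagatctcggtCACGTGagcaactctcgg

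In the early steps of autophagy, 1 of 5 genes rose. Wipi2 (ENSMUSG00000029578; chromosome 5, 142627698 to 142670588) binds the phosphoinositide made at the forming autophagosome and brings in the Atg16l1 complex. It stood at 226, 188 and 185 CPM with mitochondria, against 143, 130 and 134 CPM with vehicle. The groups did not overlap, with replicate 1 the highest of each, and the log2 fold change was 0.56 ± 0.10 (SE; adjusted p = 0.012, edgeR) and 0.47 with GC offsets (adjusted p = 0.0053). The call was lost without vehicle replicate 2 (adjusted p = 0.075) or vehicle replicate 3 (adjusted p = 0.073), where the estimates were 0.53 and 0.55. Its relative Wipi1 had an estimate of 0.15, Becn1, a subunit of the lipid kinase complex that makes that phosphoinositide, of 0.13, the lipid scramblase gene Atg9a of 0.06 and the initiating kinase gene Ulk1 of 0.00, with a 95% interval of -0.22 to 0.22.

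None of the 5 conjugation genes passed (2 had an unadjusted p under 0.05, and DESeq2 called Atg12 higher). Atg7, the enzyme that activates Atg12 and the LC3 family, stood at 48.9, 40.4 and 40.6 CPM with mitochondria, against 37.8, 21.3 and 35.4 CPM with vehicle. The groups did not overlap, but vehicle replicate 2 lay far below the rest, and the change of 0.46 ± 0.20 had an adjusted p of 0.16 (edgeR). Atg12, which is joined to Atg5, was at 74.2 ± 2.85 CPM with mitochondria and 59.0 ± 6.61 with vehicle (SD, n = 3 each; log2 0.33, adjusted p = 0.070, edgeR), and its estimate was 0.63 with GC offsets (adjusted p = 0.0082). Atg3, which transfers LC3 to lipid, had an estimate of -0.28 (adjusted p = 0.13, edgeR) and of 0.16, the opposite sign, with GC offsets (adjusted p = 0.29). Atg5 and Atg16l1, the partners of Atg12, had estimates of 0.08 and 0.18.

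None of the 5 LC3 and GABARAP genes passed in edgeR, though 3 had an unadjusted p under 0.05 and DESeq2 called 2 higher, Gabarapl1 and Gabarapl2. Gabarap, the most abundant per length, stood at 345, 307 and 302 CPM with mitochondria, against 312, 335 and 312 CPM with vehicle, and its groups overlapped (log2 -0.01, 95% interval -0.21 to 0.19). Gabarapl2 stood at 92.6, 79.7 and 78.9 CPM with mitochondria, against 70.9, 64.8 and 64.0 CPM with vehicle. There the groups were apart, with a change of 0.33 ± 0.10 (SE; adjusted p = 0.061, edgeR), and 0.43 with GC offsets (adjusted p = 0.026). Gabarapl1 was at 137 ± 10.2 CPM with mitochondria and 111 ± 4.38 with vehicle (SD, n = 3 each; log2 0.31, adjusted p = 0.054, edgeR), and its estimate was 0.18 with GC offsets (adjusted p = 0.094). Map1lc3b had an estimate of 0.19 and Map1lc3a of 0.08. Per length, Map1lc3a (59.6 FPKM with mitochondria, 59.4 with vehicle) was near Gabarapl1 (60.5 with mitochondria, 51.3 with vehicle), and Map1lc3b (31.2 with mitochondria, 28.7 with vehicle) was near Gabarapl2 (32 with mitochondria, 26.6 with vehicle).

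Fold changes of the 40 genes moved with the GC content of their transcripts, which ran from 41.6% to 61.4%. Across the 40 genes Pearson's r was 0.46 and Spearman's rho 0.35; the genes share the same 6 libraries, so this is a description. Over 17270 genes r was 0.34 and rho 0.39. The relation differed between libraries: the log2 difference from the vehicle mean correlated with GC at 0.61 in mitochondria replicate 1, 0.14 in replicate 2 and 0.38 in replicate 3. With an offset for each library's GC trend, 4 of the 40 were higher and 1 lower, against 9.94% and 9.39% of all genes in that fit. The 4 were Glb1, Wipi2, Atg12 and Gabarapl2, and the lower gene was Ids. In that fit r across the 40 genes was -0.26, and over all genes it was 0.03.

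**Figure D4:**
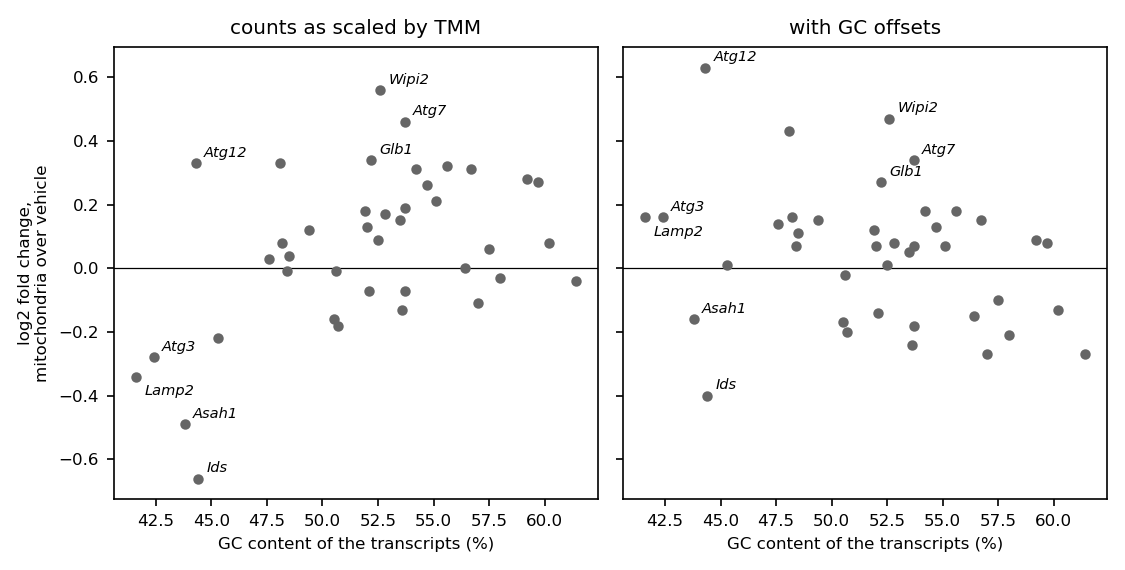
Log2 fold change (mitochondria over vehicle) of the 40 genes against the GC content of their transcripts, as scaled by TMM on the left and with GC offsets on the right. On the left Lamp2, Atg3, Asah1 and Ids lie low at 41.6% to 44.4% GC. On the right Lamp2 and Atg3 lie above 0, and Ids is still the lowest. Atg12, at 44.3% GC, lies above 0 in both, at 0.33 and 0.63.

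The wider pathway was read from 8 further lists of 154 genes, 153 of them tested. Of these 12 rose and 8 fell, a share of 13.1%, against 14.8% of all genes, with a median log2 fold change of 0.05. The counts called in each list below are to be read against the same 14.8%. With upper-quartile scaling 12 rose and 5 fell, and in limma on log2(FPKM + 1) 9 rose and 14 fell, against 7.15% and 13.2% of all genes. Leaving out vehicle replicate 2 gave 0 higher and 3 lower, and leaving out vehicle replicate 3 gave 0 and 2. Leaving out mitochondria replicate 3 gave 3 and 3, mitochondria replicate 2 gave 7 and 8, mitochondria replicate 1 gave 11 and 15 (6.02% and 9.39% of all genes), and vehicle replicate 1 gave 10 and 5 (5.4% and 6.38%). In the annotation the authors deposited, the KEGG lysosome list had 10 higher and 6 lower of 117 tested and the KEGG autophagy list 8 higher and 13 lower of 121; both lists were added after the data were seen.

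Within these 8 lists the largest changes in size were those of Rb1cc1 and Fnip1, which act upstream in autophagy and in signalling to mTORC1, the nutrient-sensing kinase complex of the lysosome surface. Rb1cc1, the scaffold of the Ulk1 kinase complex, stood at 13.7, 32.4 and 24.1 CPM with mitochondria, against 70.8, 77.7 and 76.1 CPM with vehicle. Every mitochondria library was below every vehicle library, and the change was -1.68 ± 0.26 (SE; adjusted p = 0.0074, edgeR) and -1.02 with GC offsets (adjusted p = 0.0014). Fnip1, a partner of folliculin in signalling to the Rag GTPases, stood at 15.3, 26.9 and 26.1 CPM with mitochondria, against 61.8, 64.2 and 60.7 CPM with vehicle. Its change of -1.45 ± 0.20 (SE; adjusted p = 0.0053, edgeR) was -0.84 with GC offsets (adjusted p = 0.00083). Transcripts of both are poor in GC, at 39.7% and 40.4%. Rb1cc1 and Fnip1 passed in all 18 alternatives run, and each of the other 17 calls checked in these lists was lost without at least 1 of the libraries. Of 24 mTORC1 and nutrient-sensing genes, Lamtor5, a subunit of the Ragulator scaffold, rose (0.37 ± 0.10, adjusted p = 0.044, edgeR) and Fnip1 alone fell. Of 28 further autophagy genes, 2 rose, Atg101 of the Ulk1 complex (0.54) and the Wipi relative Wdr45b (0.37), and 3 fell, Rb1cc1, the lipid kinase cofactor Uvrag (-0.60 ± 0.09, adjusted p = 0.0073) and the LC3 protease Atg4a (-0.50). With GC offsets Atg4a did not pass (-0.19, adjusted p = 0.49, edgeR).

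Of 28 other hydrolases and cofactors, 4 rose and 2 fell, against 6.36% and 8.46% of all genes. The hyaluronidase gene Hyal1 stood at 52.7, 46.2 and 42.4 CPM with mitochondria, against 30.1, 20.4 and 19.6 CPM with vehicle, a change of 1.01 ± 0.18 (SE; adjusted p = 0.011, edgeR). Those groups were well apart, although the call was lost without vehicle replicate 2 (adjusted p = 0.061) or vehicle replicate 3 (adjusted p = 0.059). Hgsnat, an acetyltransferase of heparan sulfate breakdown (0.36), and the cholesterol carrier Npc2 (0.31) also rose, and the thioesterase gene Ppt1 (-0.36) and the peptidase gene Tpp1 (-0.36) fell. The remaining call, Aga, which splits sugars from asparagine, was named after its value was seen (0.33, adjusted p = 0.036, edgeR). In enzyme delivery, 1 of 9 rose, the mannose phosphate receptor gene M6pr (0.52 ± 0.10, adjusted p = 0.014, edgeR), and 1 fell, Gnptab, which makes the mannose phosphate tag (-0.54 ± 0.14, adjusted p = 0.037).

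No subunit of the proton pump that acidifies lysosomes, the v-ATPase, passed among 19 tested by edgeR (5 had an unadjusted p under 0.05). DESeq2 called 1 higher and 1 lower, against 10.6% and 13.6% of all genes. With GC offsets 2 were higher and 1 lower, against 9.94% and 9.39% of all genes in that fit. The 3 were Atp6v1d (0.36, adjusted p = 0.035, edgeR) and Atp6v1h (0.35, adjusted p = 0.038) higher and Atp6v1a (-0.33, adjusted p = 0.035) lower. Without offsets their estimates were -0.13, 0.00 and -0.42. The largest estimate in size was that of Atp6v1g2, -0.48 ± 0.45 (0.676 ± 0.154 CPM with mitochondria and 0.942 ± 0.314 with vehicle; SD, n = 3 each). Of 19 other membrane and transport genes, Laptm4b rose (0.44) and Mfsd1 fell (-0.37), both near the threshold (adjusted p = 0.047 and 0.048, edgeR). With GC offsets Mfsd1 was at -0.11 (adjusted p = 0.62, edgeR). The channel gene Tpcn2 had the largest estimate of this list in size, -0.52 (adjusted p = 0.064, edgeR). Tpcn2 passed in 7 of the 18 alternatives, among them GC offsets (-0.65, adjusted p = 0.012, edgeR). Of 12 autophagy receptors 2 rose, Sqstm1, which binds ubiquitinated cargo, and the mitophagy receptor Bnip3. Only 4 of the 12 receptor estimates were above 0, and their median was -0.06. Sqstm1 stood at 736, 648 and 630 CPM with mitochondria, against 543, 406 and 393 CPM with vehicle, with no overlap (0.59 ± 0.13, adjusted p = 0.023, edgeR), and Bnip3 changed by 0.35 ± 0.09 (adjusted p = 0.031). Tax1bp1 had the largest estimate of the receptors in size, -0.64, and did not pass (adjusted p = 0.11, edgeR). Of 14 genes of lysosome fusion and positioning, Borcs6, a subunit of the BORC complex that moves lysosomes, rose (0.61 ± 0.11, adjusted p = 0.013, edgeR).

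**Figure D5:**
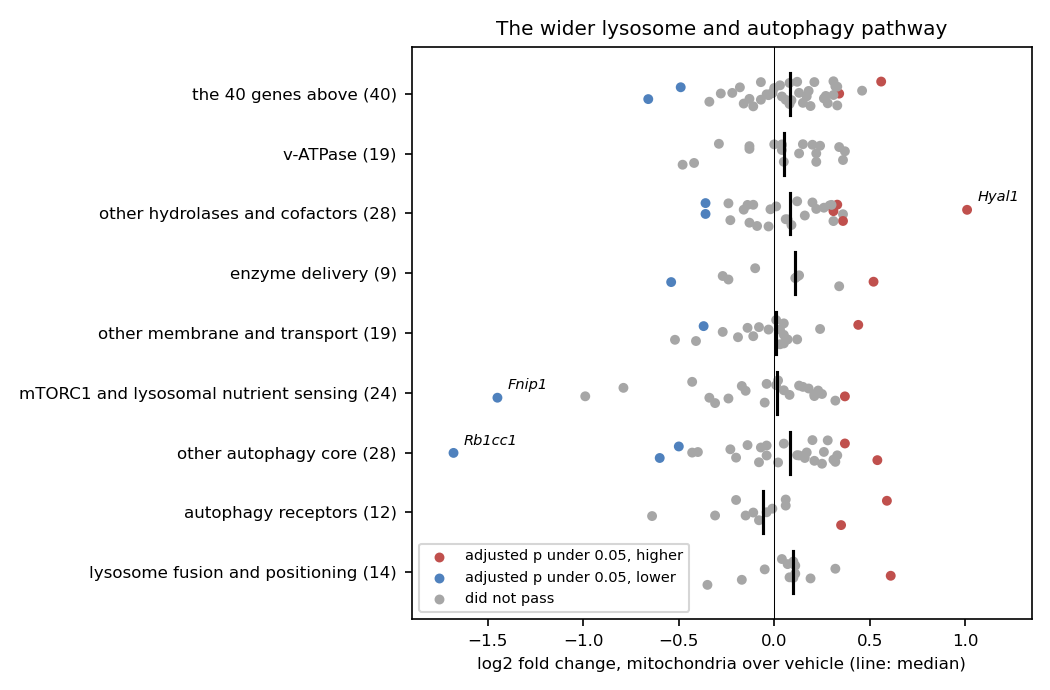
Log2 fold change (mitochondria over vehicle) of the 40 genes and of the 8 further pathway lists, with the number tested in parentheses, the median of each list as a line, and genes that passed in red (higher) or blue (lower). Medians lie between -0.06 and 0.11, and Rb1cc1, Fnip1 and Hyal1 lie farthest from 0 among the genes that passed.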

How the data were processed

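RNA of 6 chondrocyte libraries, 3 with IL-1β and mitochondria and 3 with IL-1β and vehicle, was analysed from 1 deposited table. The authors deposited an estimated count and an FPKM value for each gene and library, per the file headers. The submitters' processing notes name HISAT2 2.0, StringTie 1.3.0, Bowtie 0.12.2 and the build mm8 without stating a role, while coordinates in the table match GRCm38 for 90.2% of IDs found in GENCODE M21. Libraries held 63547854 to 66293786 counts. Low counts pile up at 4 (2.31 to 2.84 times neighbouring values), so 1 fragment may be worth about 4 counts and counting precision is lower than the totals imply.

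Counts were rounded to whole numbers. Genes were filtered with filterByExpr (minimum count 10), scaled by TMM and tested by edgeR's quasi-likelihood test (edgeR 4.0.16, limma 3.58.1, R 4.3.3) with group as the only term, two-sided, with Benjamini-Hochberg adjustment over 17290 genes and a threshold of 0.05. The SE is the log2 fold change divided by the square root of F. Alternatives included DESeq2 1.42.0, limma on log2(FPKM + 1), GC offsets and leaving out each library; the code was tested on simulated data. CPM compares libraries within a gene, and the deposited FPKM compares genes. Promoter sequences are those of RefSeq, GRCm38.p6.

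The 40 genes and all lists were chosen with earlier results of these data known. All 40 are named. Values in every library are given for those that passed, the 4 highest in FPKM, the largest change of each role and the TFEB family. From each further list, all calls are named where there were at most 5, otherwise the 5 with the smallest p, with the largest change in size.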

Additional observations from a re-analysis of the deposited data

How the results depend on the processing

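The median log2 fold change of the 40 genes stayed between 0.00 and 0.14 over the 18 alternatives, and none of the 4 calls changed sign. Of the 36 genes that did not pass, 14 had an estimate of the other sign in at least 1 alternative, and 4 passed in at least 1. The median over all genes was 0.06 under upper-quartile scaling, -0.04 to -0.05 in limma with its filter and 0.02 with GC offsets. The part of these shifts in the changes of sign was not tested. Over the 6 fits that each left out 1 library, between 130 and 1086 genes were higher and between 310 and 1694 lower, of the 40 genes 0 to 3 were higher and 0 to 2 lower, of the other pathway genes 0 to 11 were higher and 2 to 15 lower, and the median was 0.02 to 0.12.

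Without a filter on counts 357 genes were higher and 507 lower, among them 1 and 1 of the 40 and 3 and 3 of the other pathway genes. In limma on log2(FPKM + 1) without a filter these counts were 161 and 301, 0 and 1, and 1 and 5. DESeq2 called 1687 genes higher and 2175 lower, with 6 and 2 of the 40 and 16 and 17 of the other pathway genes. GC offsets gave 1717 and 1622 genes, 4 and 1 of the 40, and 21 and 12 of the other pathway genes. Counts divided by 4 gave 1264 and 1683 genes, 4 and 2 of the 40, and 12 and 13 of the other pathway genes. Upper-quartile scaling gave 1456 and 1350, 5 and 2, and 12 and 5. limma on log2(FPKM + 1) gave 943 and 1744, 2 and 2, and 9 and 14. With a pseudocount of 0.1 these counts were 906 and 1618, 2 and 2, and 7 and 13. The cause of these shifts was not tested.

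The labels do not say whether replicate numbers pair the libraries. Deviations from the group mean correlated at 0.0371, 0.00907 and -0.0152 for same-numbered libraries, and at -0.0314 to 0.0257 for others. With 3 libraries in each group, centred on their own mean, these values cannot show whether libraries were paired. With a replicate block 898 genes were higher and 1386 lower, 1 and 2 of the 40, and 8 and 5 of the other pathway genes; with the replicate block and GC offsets together, 1472 and 1482, 3 and 1, and 21 and 10. Glb1 did not pass in either of these fits (adjusted p = 0.061 and 0.056, edgeR).

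Precision differed between genes and did not follow counts alone. The SE was 0.24 for Tfeb at 171 to 306 counts and 0.08 for Lamp1 at 50437 to 57420 counts. For Tax1bp1, at 3682 to 10321 counts, it was also 0.24. There mitochondria replicate 1 stood at 57.1 CPM, against 120 and 116 CPM in the other mitochondria libraries.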
